A study of Mus musculus with 2 samples.

Results

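STAT3-dominant sites are places in the genome of T helper 17 (Th17) cells where a STAT3 antibody recovered at least 3 times the level of DNA that STAT5 antibodies did. They were chosen by the read counts of both chromatin immunoprecipitation sequencing libraries in 400 bp tiles of chromosomes 1 to 19, so their height and their ratio are descriptions and were not tested. A site is a tile with 60 or more STAT3 reads whose STAT3 level, in RPM (reads scaled to the library's nuclear reads), is 3 or more times its STAT5 level. Of 4964342 tiles with a read of either library, 32492 held 60 or more STAT3 reads, and 1574 of these (4.84%) reached the ratio. With the antibodies exchanged, 15469 of the 38988 tiles with 60 or more STAT5 reads (39.7%) were at 3-fold or more in favour of STAT5. These counts depend on the scaling: with levels scaled by 10 kb bins without a tile of 20 reads, 620 STAT3 tiles (1.91%) and 19132 STAT5 tiles (49.1%) reached 3-fold, and the rule gave 596 sites. Keeping the tallest of adjacent tiles removed 85, and dropping tiles with over 80% of STAT3 reads on 1 strand removed 1, which left 1488 sites.

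Both libraries came from wild type C57BL/6J mice. Naive CD4 T cells were sorted from spleen and lymph nodes and grown for 3 days on CD3 and CD28 antibodies with IL-6 at 20 ng/ml, TGF-beta at 2 ng/ml and an antibody to IL-4. The labels also list an antibody to IL-2 at 100 IU/ml, a unit more usual for the cytokine. The STAT3 library followed 30 minutes of IL-6 at 40 ng/ml, and the STAT5 library, made with a mixture of STAT5a and STAT5b antibodies, followed 30 minutes of IL-2 at 200 IU/ml. Antibody and cytokine therefore changed together, each library stands alone, and their parts in any difference cannot be told apart. Neither age nor any pooling of the mice is stated by the labels.

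STAT3 and STAT5 are latent transcription factors that Janus kinases phosphorylate at cytokine receptors, after which dimers enter the nucleus and bind closely similar palindromic elements. STAT3, downstream of IL-6, IL-21 and IL-23, is needed for Th17 differentiation. STAT5, downstream of IL-2, restrains it, and sites bound by both factors are known at the genes of the IL-17 family.

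The STAT3 library held 20784388 nuclear reads and the STAT5 library 17963766, each at its own position and strand, so a tile can hold at most 800 reads. Positions are on mm9 and counted from 1. No mm9 annotation or sequence was used here, and sites are therefore given without gene names or bases. Intervals are 95% intervals, exact for counts and shares, and cover counting error only. None is given for sums over rings around tiles, in which a read can be counted for more than 1 tile. Sites share their library and are not replicates of a condition.

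The STAT3 reads at these sites lay on both sides of a central point, plus strand ends to the left and minus strand ends to the right. Minus strand read ends lay a median of 88.5 bp (interval of the median 87 to 89.5) to the right of plus strand read ends, and the offset was between 40 and 160 bp at 1406 of 1488 sites (94.5%). Shared tiles, which held 60 or more reads of each antibody at levels within 1.5-fold, had a median offset of 84.5 bp. Pairs of opposite-strand STAT3 ends were most frequent at 94 bp in the sites and at 95 bp in shared tiles. Exact matches to the genome made up 98.1% of the STAT3 reads both at the sites and in shared tiles.

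Every site meets the rule by choice, but not every one was a STAT3 position of its own. At 176 sites (11.8%, interval 10.2 to 13.6%) an adjacent tile held more STAT3 reads, so that the site was the shoulder of a taller STAT3 position that did not reach the ratio. An example on chromosome 7 (29165600 to 29165999) counted 98 STAT3 against 27 STAT5 reads, beside a tile with 646 and 555. An adjacent tile with more STAT3 reads was also found at 9.81% of shared tiles (9.24 to 10.4%). It was found at 0.236% of tall STAT3 tiles that were neither sites nor beside one. When reads were recounted in 400 bp around the median STAT3 position, 1244 sites (83.6%, 81.6 to 85.4%) were still at 3-fold or more, 1468 were at 2-fold or more and 20 fell below 2-fold. The recount used reads that the choice had also used, so it is a description. Tiles moved by 200 bp gave 1493 sites, which overlapped 998 of the 1488. The 490 sites not overlapped were nearer the limits, with a median ratio of 3.41 against 4.12 and a median of 84 against 117 STAT3 reads. Without the 176 shoulders, 1312 sites remained with a median ratio of 3.86.

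The sites were moderate in height and mostly close to the ratio limit. They held 60 to 507 STAT3 reads, with a median of 105 and quartiles of 76 and 159, which is a median level of 5.05 RPM. STAT5 reads ranged from 1 to 145 with a median of 22, or 1.22 RPM. The ratio of levels ranged from 3.00 to 69.1, with a median of 3.83 (3.76 to 3.90) and quartiles of 3.31 and 4.88. It was 5 or more at 349 sites (23.5%), 10 or more at 52 (3.49%) and 20 or more at 9 (0.605%). The exact interval of a site's own ratio lay above 2 at 1307 sites and at or above 3 at 407.

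The limits divide tiles with nearly the same ratio or height, as the tiles nearest to each limit show. The nearest inside the ratio limit, on chromosome 2 (120308800 to 120309199), counted 125 STAT3 against 36 STAT5 reads, for a ratio of 3.00. With 177 and 51 reads, a tile on chromosome 4 (130460400 to 130460799) came to 2.9996 and was left out. Ratios below 3.3 were seen at 359 sites, and 528 further tall STAT3 tiles had ratios from 2.7 to 3. At the limit on height, a site with 60 and 17 reads on chromosome 1 from 130118000 to 130118399 stood beside a tile left out with 59 and 16 reads on chromosome 9 from 14868400 to 14868799.

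**Figure D1:**
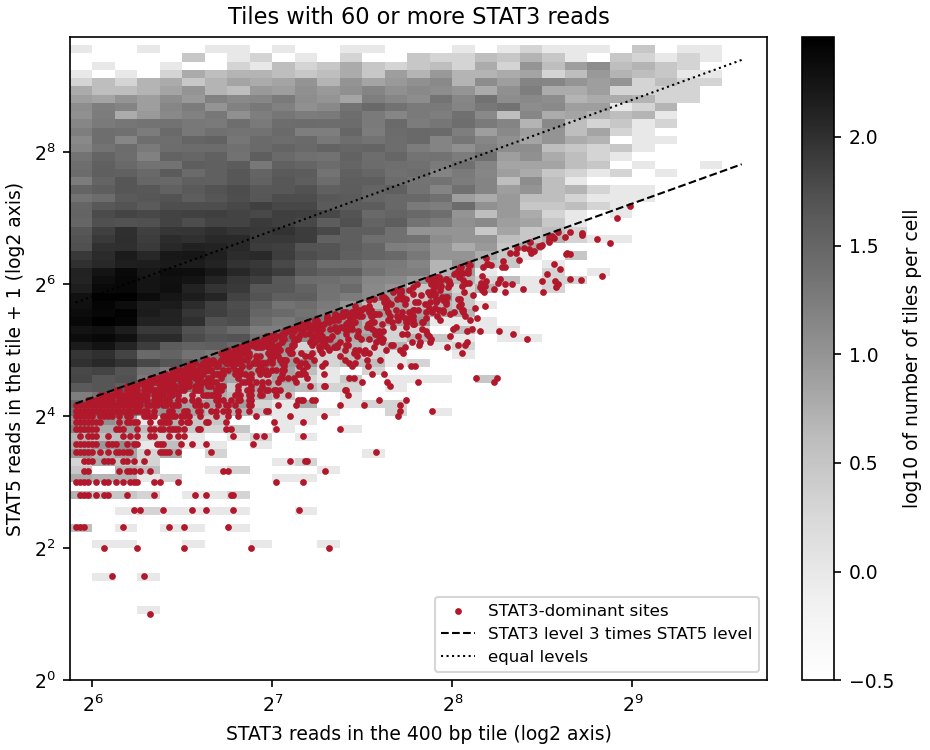
Each grey cell counts the tiles with 60 or more STAT3 reads by their STAT3 reads (x axis, log2) and STAT5 reads plus 1 (y axis, log2), and each red point is 1 or more of the 1488 sites. The sites lie at and below the dashed line of a ratio of 3, and most tiles lie around the dotted line of equal levels or above it.

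The 10 tallest sites, at 403 to 507 STAT3 reads, were not free of STAT5, which gave 66 to 145 reads. The tallest, on chromosome 2 (128370400 to 128370799), counted 507 STAT3 reads (24.4 RPM) against 145 for STAT5 (8.07 RPM), for a ratio of 3.02 (2.51 to 3.66). The centre of its STAT5 reads lay to the left of that of its STAT3 reads. The tile before it held 160 STAT3 and 73 STAT5 reads, the tile after it 54 and 17. The next, on chromosome 4 (151699600 to 151699999), counted 482 against 128, for a ratio of 3.25 (2.67 to 3.99). This site was a single narrow point, with 39 and 56 STAT3 reads in the tiles to its sides.

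Next in height was chromosome 10 (19653600 to 19653999), where 470 STAT3 reads met 98 of STAT5 at a ratio of 4.15 (3.33 to 5.21). STAT3 formed a pair of maxima inside this tile. Both strands gave the same ratio there, from 235 and 49 reads each. To its right the tiles held 78 STAT3 and 35 STAT5 reads, then 36 and 44, then 39 and 50, then 77 and 18. The last of these is a site of its own. Chromosome 6 (143115200 to 143115599) gave 455 STAT3 against 69 STAT5 reads, at 5.70 (4.42 to 7.45), the highest among the 10 tallest. The tiles adjacent to it held 81 STAT3 and 52 STAT5 reads, and 125 and 59. Farther out STAT5 was the higher antibody in some tiles: one 1.6 kb away had 118 STAT5 and 34 STAT3 reads.

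A second member of the tallest 10 had STAT5-rich tiles close by. Chromosome 18 (36719600 to 36719999) gave 420 STAT3 against 66 STAT5 reads, at 5.50 (4.23 to 7.24), while tiles 2 kb and 1.6 kb to the left held 310 and 159 STAT5 reads against 25 and 5 STAT3 reads. On chromosome 10 (24011600 to 24011999) the counts were 403 and 110, for 3.17 (2.56 to 3.95). A neighbouring tile 0.8 kb away had nearly as many STAT3 reads, 401, with 167 STAT5 reads, and did not reach the ratio. The remaining 4 of the 10 tallest lay on chromosome 4 from 135733600 to 135733999 (422 STAT3 and 106 STAT5 reads), on chromosome 15 from 27654000 to 27654399 (422 and 109), and on chromosome 10 from 99021200 to 99021599 (403 and 87) and from 114688400 to 114688799 (447 and 102). In 8 of the 10 the centres of the STAT3 and STAT5 reads were 25 bp apart or less, and in 8 a tile with 60 or more STAT5 reads lay within 10 kb. The first held for 57.1% of the 1403 sites with 10 or more STAT5 reads, the second for 49.7% of all sites.

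The 10 sites whose ratio had the highest lower end of its interval were smaller than the 10 tallest. Fewer of them had a tall STAT5 tile within 10 kb. STAT3 gave 78 to 191 reads there, STAT5 gave 1 to 10, and ratios ran from 16.5 to 69.1. The first, on chromosome 15 from 79928000 to 79928399, had 159 STAT3 reads, 78 on the plus and 81 on the minus strand, and 3 STAT5 reads. Its ratio was 45.8 (15.4 to 224), and the tile's STAT5 count was close to the 2.8 reads expected from its flanks 2 to 5 kb away. The site on chromosome 9 from 122564800 to 122565199 had 80 STAT3 reads and 1 STAT5 read, the fewest STAT5 reads of any site, with a ratio of 69.1 (12.1 to 2765). STAT5 was below its flank level of 5.53 reads there.

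Chromosome 11 (5874000 to 5874399) followed with 118 STAT3 against 3 STAT5 reads (ratio 34.0, 11.4 to 167), and chromosome 12 (104511200 to 104511599) with 142 against 5 (24.5, 10.3 to 76.8). Both were isolated points: the tiles beside the first held 22 and 6 STAT3 reads, and those beside the second 4 and 9. On chromosome 7 a site from 107178000 to 107178399 had the most STAT3 reads of these 10, 191, with 10 STAT5 reads (16.5, 8.78 to 35.0). The site on chromosome 16 from 95355600 to 95355999 had 144 and 7 reads (17.8, 8.41 to 45.0). Of the 10 sites, 1 had a tile with 60 or more STAT5 reads within 10 kb, against 8 of the 10 tallest. Over all 1488 sites the share was 49.7%. Recounting around the STAT3 centre left all 10 at 3-fold or more, although on chromosome 5 from 137774400 to 137774799 the ratio came down from 23.3 to 6.14.

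One of these 10 had a different form. On chromosome 18 from 13132400 to 13132799 the 157 STAT3 and 8 STAT5 reads were part of a plateau: the tile before held 133 STAT3 and 19 STAT5 reads, the tile after 156 and 23, and the one after that 2 and 2. Its strand offset was 13.5 bp, whereas the site on that chromosome among the tallest had 70 bp. The tallest and highest-bound sites elsewhere mostly had 70 bp or more. However, the tallest site of chromosome 13 (24639200 to 24639599) had 14 bp. The flanks of the plateau on chromosome 18 were quiet, at 2.8 STAT3 reads per tile.

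**Figure D2:**
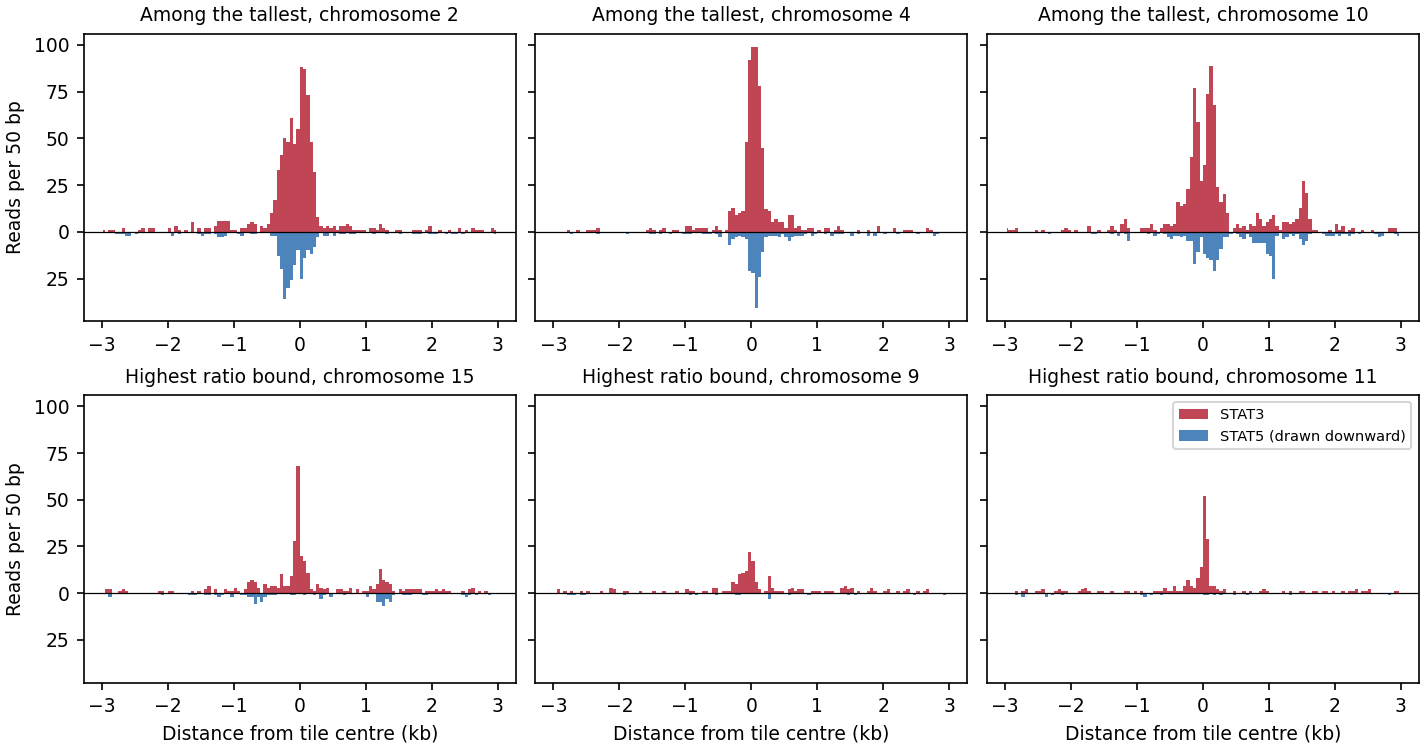
STAT3 reads (red, upward) and STAT5 reads (blue, drawn downward) in bins of 50 bp around 3 of the tallest sites (upper row) and the 3 sites with the highest lower end of the ratio interval (lower row). STAT5 reads are visible within each of the tallest sites, on chromosome 2 mostly to the left of the STAT3 maximum. On chromosome 10 the highest STAT5 bin within the site held 21 reads, and a bin to its right, outside the site, held 25. The sites with the highest bounds, with 159, 80 and 118 STAT3 reads, have almost no STAT5 reads.

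Taking the tallest site of each chromosome, STAT3 gave 269 to 507 reads and STAT5 33 to 145. The highest ratios among these 19 were on chromosome 19 from 5473600 to 5473999 (341 and 35 reads, ratio 8.42, 5.94 to 12.3), chromosome 7 from 27963600 to 27963999 (323 and 37, 7.55, 5.36 to 10.9), chromosome 17 from 56897600 to 56897999 (269 and 33, 7.05, 4.90 to 10.4) and chromosome 16 from 20098000 to 20098399 (285 and 38, 6.48, 4.61 to 9.35). Each of these 4 was above 6-fold on either strand alone. At the chromosome 19 site the ratio was 11.9 on the plus and 6.36 on the minus strand.

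Lower ratios belonged to chromosome 1 from 138581600 to 138581999 (378 and 78 reads, ratio 4.19), chromosome 8 from 122476000 to 122476399 (398 and 88, 3.91), chromosome 12 from 86814400 to 86814799 (395 and 104, 3.28), chromosome 3 from 90069600 to 90069999 (360 and 95, 3.28), chromosome 13 from 24639200 to 24639599 (372 and 99, 3.25) and chromosome 14 from 103227600 to 103227999 (337 and 93, 3.13). The tallest sites of chromosomes 9, 5 and 11 were nearer still to the limit, at 3.09, 3.03 and 3.03. The chromosome 13 site was a shoulder, since the tile before it held 447 STAT3 and 207 STAT5 reads. On chromosome 1 the tile after the site held 133 STAT5 reads against 78 in the site itself. Of the 19, 16 were still at 3-fold or more around the STAT3 centre.

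Sites were found on every autosome. The share of tall STAT3 tiles at 3-fold or more ranged from 4.28% on chromosomes 6 and 13 to 6.12% (interval 4.80 to 7.67%) on chromosome 14, with a median of 4.82%. The interval of every chromosome contained the 4.84% found over all 19, so no chromosome stood apart beyond counting error. In number, chromosome 11 had most, 129 sites or 1.09 per Mb, and chromosome 18 fewest, 40 or 0.456 per Mb. Chromosome 11 also had the most tall STAT3 tiles, 2818, and chromosome 18 the fewest, 806. Per Mb, sites were fewest on chromosome 3, at 0.441.

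The share at 3-fold was highest among tiles of intermediate to large STAT3 height. It was 3.85% (3.51 to 4.21%) among tiles with 60 to 79 STAT3 reads, 5.27% (4.78 to 5.80%) with 100 to 149, 8.11% (7.01 to 9.32%) with 200 to 299 and 3.59% (1.81 to 6.34%) with 400 or more. The median ratio changed little over these classes, from 1.10 to 0.949. The tallest class is the one most compressed by the limit of 800 reads: with counts corrected for positions already taken, its share was 8.17%, against 10.6% for 200 to 299 reads.

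Where tiles were chosen on 1 strand, the other strand gave a reading that the choice had not used. Tiles chosen on plus strand reads alone, with 30 or more STAT3 reads and a ratio of 3 or more, numbered 1706. Their median ratio on the minus strand was 3.39, and 1699 of them (99.6%) had a minus strand ratio above 1. That ratio was 3 or more at 60.8% (58.5 to 63.2%). Choosing on the minus strand gave 1685 tiles with a median plus strand ratio of 3.46 (3.32 to 3.53). This repeats the counting within the libraries and cannot stand for a second library.

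STAT5 was low at the sites but seldom at the level of its surroundings. The sites held a mean of 27.8 STAT5 reads, 3.13 times the 8.88 expected from flanks 2 to 5 kb away. STAT3 reads were 11.7 times their flank level. STAT5 exceeded 2 times its flank level at 1125 sites (75.6%, 73.3 to 77.8%) and was at or below it at 135 (9.07%, 7.66 to 10.6%). At those 135 the flanks themselves were high in STAT5, with a median of 29 reads per tile, and 126 had a tile with 60 or more STAT5 reads within 5 kb. In shared tiles, which were chosen to hold 60 or more STAT5 reads, STAT5 was above 2 times the flank level at 94.0%. In STAT5-dominant tiles, found by the same rule with antibodies exchanged, STAT3 was above 2 times its flank level at 60.9%.

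The mean profile showed the same in finer detail. Around the STAT3 centre, STAT3 rose to 8.25 RPM per 200 bp and STAT5 to 1.54, and both had their maximum within 10 bp of the centre. The mean STAT5 profile stood 4.08 times above its level beyond 800 bp. The STAT3 profile was 120 bp wide at its middle height, against 180 bp in shared tiles and 160 bp in tall STAT3 tiles that were not sites or beside one. Of the STAT3 reads within 1 kb, a median of 65% (63.7 to 66.5%) lay within 200 bp of the centre, compared with 58.2% (57.8 to 58.7%) in shared tiles. For the STAT5 reads around the same centre the medians were 40.0% (38.9 to 41.7%) at the sites and 58.6% in shared tiles. STAT3 was thus the more concentrated of the antibodies at the sites. The choice used the counts of the tile, so these widths are descriptions.

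**Figure D3:**
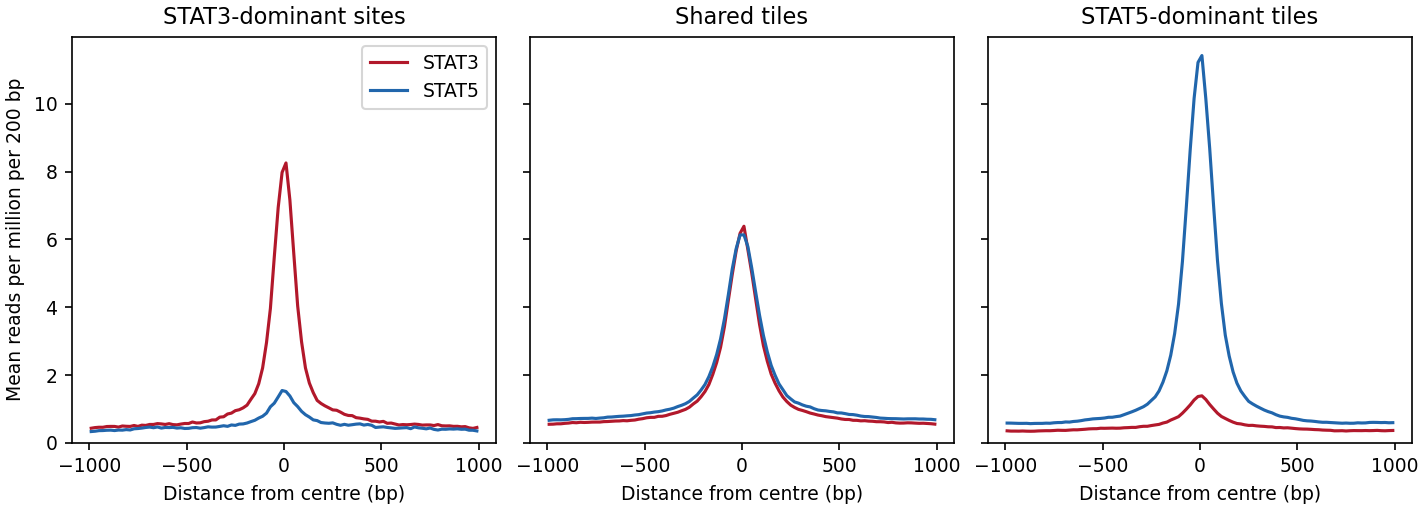
Mean level of STAT3 (red) and STAT5 (blue), in RPM per 200 bp, against the distance in bp from the centre of the STAT3 reads (of the STAT5 reads for STAT5-dominant tiles). At STAT3-dominant sites STAT3 reaches 8.25 and STAT5 a small centred maximum of 1.54, whereas both reach 6.39 and 6.13 in shared tiles.

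The weak STAT5 signal was not always under the STAT3 centre. In the 1403 sites with 10 or more STAT5 reads the centres of the 2 antibodies were a median of 21 bp apart (20 to 22.5), against 14 bp (14 to 14.5) in shared tiles. They were 25 bp apart or less at 57.1% of sites (54.5 to 59.7%) and over 100 bp apart at 6.27% (5.06 to 7.67%), while shared tiles gave 72.1% and 1.69%. Sites had fewer STAT5 reads than shared tiles, and a median of few reads is less exact. The part of that in the difference was not tested.

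At 588 sites (39.5%) an adjacent tile held more STAT5 reads than the site, and at 218 (14.7%, 12.9 to 16.6%) an adjacent tile held 60 or more. The first share follows partly from choosing tiles low in STAT5. The second was lower than in other tall STAT3 tiles (27.8%), shared tiles (33.2%) and STAT5-dominant tiles (36.0%). The 218 sites had a median of 128.5 STAT3 and 30 STAT5 reads, and their taller neighbour a median of 86 STAT5 reads; 132 of them were at 3-fold or more around the STAT3 centre. On chromosome 7 from 39000400 to 39000799, 183 STAT3 and 31 STAT5 reads (ratio 5.10, 3.47 to 7.73) lay beside a tile with 43 STAT3 and 402 STAT5 reads. On chromosome 8 from 123260400 to 123260799, 75 STAT3 and 11 STAT5 reads met 210 and 344 in the tile before. A STAT5-dominant tile, found by the same rule with antibodies exchanged, was adjacent to 8 sites, and one beyond the adjacent tiles lay within 2 kb of 62 sites. In contrast, 704 sites (47.3%) had STAT5 above 2 times its flank level and no adjacent tile with more STAT5 reads.

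STAT3 was also higher relative to STAT5 in the surroundings of the sites than around other tiles. In the 2 to 5 kb to either side, the summed STAT3 level was 1.08 times the STAT5 level. The ratio was 0.821 around shared tiles, 0.809 around other tall STAT3 tiles and 0.686 around STAT5-dominant tiles. Since 4.50% of sites had another site within 5 kb, some of these flanks held reads that the choice had used. In an alternative added after the data were seen, each flank tile was counted once and all tiles at both limits and their neighbours were left out. The ratio was then 1.04 (1.03 to 1.05) around the sites and 0.810 (0.808 to 0.812) around shared tiles, which is 1.29 times apart. STAT3 was the higher antibody in the flanks of 1137 sites (76.4%, 74.2 to 78.5%) and of 58.0% of shared tiles.

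The size of this contrast depended on the flank tiles used, and whether the flank ratio exceeded 1 depended on the scaling. With each flank tile counted once and those with 20 or more reads of either library left out, the ratio was 1.32 (1.31 to 1.34) around the sites and 1.21 (1.21 to 1.22) around shared tiles, or 1.09 times apart. When sites and shared tiles were chosen anew with levels scaled by 10 kb bins, the ratio was 0.786 around the sites and 0.644 around shared tiles, 1.22 times apart. Over all flank tiles the classes differed more in STAT5 than in STAT3. At 2 to 5 kb the sites had 27.7 STAT3 and 22.2 STAT5 reads per kb, and shared tiles 36.0 and 37.9.

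The ratio was smaller at greater distances. It was 1.61 at 0.2 to 0.6 kb, 1.25 at 0.6 to 1 kb, 1.16 at 1 to 2 kb, 1.01 at 5 to 10 kb and 0.966 at 50 to 100 kb. At 50 to 100 kb shared tiles were at 0.895 and STAT5-dominant tiles at 0.848, against 0.997 for all reads of these chromosomes.

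**Figure D4:**
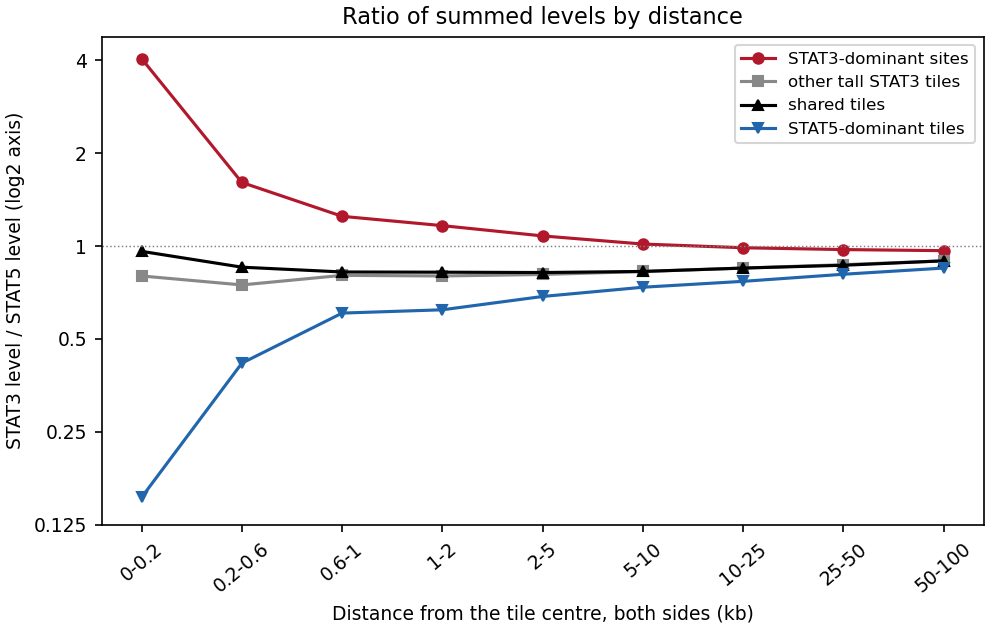
Ratio of the summed STAT3 level to the summed STAT5 level (log2 axis) in rings at growing distance from the tile centre, for the 1488 sites (red circles) and 3 other classes of tiles. The sites fall from 4.04 in the tile to 1.08 at 2 to 5 kb and 0.966 at 50 to 100 kb, and are above the other classes in every ring.

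Tall STAT5 tiles were less frequent around the sites. A tile with 60 or more STAT5 reads, other than the site and its direct neighbours, lay within 10 kb of 739 sites (49.7%, 47.1 to 52.2%). The same held for 64.8% (64.2 to 65.4%) of other tall STAT3 tiles and 68.1% (67.2 to 69.0%) of shared tiles. STAT5-dominant tiles lay within 10 kb of 22.0% of sites (20.0 to 24.2%), 37.2% (36.6 to 37.8%) of other tall STAT3 tiles and 40.4% of STAT5-dominant tiles themselves. For tall STAT3 tiles the gap was smaller, at 55.8% of sites (53.2 to 58.3%) and 62.4% of other tall STAT3 tiles. The median distance to the nearest tall STAT5 tile was 10.4 kb from a site and 4.8 kb from another tall STAT3 tile. The intervals do not overlap, but tiles near each other are not independent and no test was made.

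Most sites stood alone. Another site lay within 10 kb of 111 (7.46%, 6.18 to 8.91%), and the median distance to the next was 198.4 kb. Tall STAT3 tiles that were not sites had a site within 10 kb at 6.05% (5.75 to 6.37%), an interval that overlaps that of the sites. Chained within 10 kb, the sites made 1377 single sites, 50 pairs, 2 groups of 3 and 1 group of 5.

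The group of 5 lay on chromosome 15 from 100428800 to 100445999 and spanned 17.2 kb without 1 tile of 60 or more STAT5 reads. Its sites, from left to right, had 115 STAT3 and 24 STAT5 reads (ratio 4.14), 94 and 27 (3.01), 175 and 45 (3.36), 153 and 41 (3.23), and 262 and 33 (6.86, 4.77 to 10.2). The group on chromosome 7 from 134220400 to 134232799 held sites with 163 and 44, 177 and 36, and 78 and 16 reads, and 2 tiles with 60 or more STAT5 reads. The other group of 3, on chromosome 11 from 52122800 to 52127599, held sites with 193 and 46, 61 and 16, and 148 and 21 reads (the last at a ratio of 6.09, 3.84 to 10.1). It had 1 such STAT5 tile within its 4.8 kb. Over 1 Mb the densest windows held 7 sites, on chromosome 15 from 100000000 to 100999999 among 65 tall STAT3 tiles, and on chromosome 19 from 5000000 to 5999999 among 88. Of the 833 windows of 1 Mb with a site, 451 held 1.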

How the data were processed

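The deposited files give the mm9 position of every aligned 25 nt read on its own line, with the build per the submitters' processing notes. The sources used here name neither the aligner nor the step that left 1 read per position and strand. The deposited score was 0 in every line and was not used. The labels give 18 amplification cycles and no control library was used here. Read 5′ ends were moved 50 bp in the 3′ direction and counted in 400 bp tiles starting at multiples of 400, with Python 3.11.15, numpy 2.4.6, scipy 1.17.1 and pandas 2.3.3. Ratios of RPM have exact conditional 95% intervals, shares Clopper-Pearson intervals and medians binomial order-statistic intervals. With 1 library per antibody no p-value was computed, and the libraries, not the conditions, are compared. The rule and its intervals were checked on simulated tiles. Sites named are the 10 tallest, the 10 with the largest lower bound of the ratio, the tallest of each chromosome, the 3 largest groups and those nearest the limits. The sites beside STAT5-rich or taller tiles and the 1 Mb windows were picked after their values were seen. The sites, classes and alternatives were chosen with earlier results of these data known. Planned results on sequence motifs and gene positions were not run, since no mm9 sequence or annotation was used.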

Additional observations from a re-analysis of the deposited data

Results flagged for a closer look

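Chromosome X was not part of the rule. The same limits applied there gave 26 tiles, listed because the comparisons above did not use tiles of chromosome X. No control library was used here. Of 362 tiles with 60 or more STAT3 reads on chromosome X, 27 were at 3-fold or more (7.46%, exact 95% interval 4.97 to 10.7%), against 4.84% on chromosomes 1 to 19. The 26 tiles had 62 to 308 STAT3 and 8 to 70 STAT5 reads. The tallest, from 53851200 to 53851599, had 308 and 70.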

How the results depend on the processing

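The number of sites followed the limits. It was 414 where the lower interval bound had to reach 3, 790 with a minimum of 100 STAT3 reads, 2350 with 40, 4064 at a ratio limit of 2, 644 at 4, and 596 when scaled by 10 kb bins without a tile of 20 reads. In the same order, another site lay within 10 kb of 1.45, 4.81, 12.6, 21.3, 2.48 and 2.35% of sites. That share was 12.4% with 200 bp tiles, 10.4% corrected for positions taken, 9.44% on plus and 9.38% on minus strand reads, 4.50% within 5 kb and 23.9% within 50 kb. The median ratio was 5.89 with the bound, 3.90 with 100 reads, 2.62 and 5.16 at limits of 2 and 4, 3.75 with a 100 bp shift, 3.99 and 3.69 in 200 and 800 bp tiles and 3.91 on minus strand reads. A tall STAT5 tile lay within 10 kb of 43.2% with the bound, 55.8 and 46.6% at limits of 2 and 4, 46.8% with bin scaling and 52.4% with tiles moved by 200 bp, and within 5 and 50 kb of 35.6 and 85.7%. The flank ratio changed direction, to 0.792, with bin scaling, in which the STAT3 level is 0.729 of its level per nuclear read. Otherwise it was 1.10 with the bound, 1.09 with 100 and 1.06 with 40 reads, 1.03 and 1.09 at limits of 2 and 4, 1.07 with a 100 bp shift, 1.04 and 1.10 in 200 and 800 bp tiles, and 1.07 and 1.05 on plus and minus strand reads. It was 1.16 at 1 to 2 kb and 1.01 at 5 to 10 kb, where STAT5 stood 3.61 times over its flanks. Alternatives added after seeing the data gave a flank ratio of 1.33 in quiet flank tiles, 1.04 with each flank tile once and no tile at the limits or beside one, and, without sites beside a taller STAT3 tile, 1.07 with another site within 10 kb of 5.56%. The causes of these changes were not tested. No paired analysis was possible because there is 1 library per antibody. The motif and gene position alternatives were not run. Depth limits single sites: the interval of the ratio excluded 2 at 1307 of 1488 sites and lay at or above 3 at 407.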
